A study of Rattus norvegicus and Mus musculus with 24 samples.

Results

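The glucose and monocarboxylate transporters of the proximal tubule were followed through bulk RNA sequencing of kidneys that lack *Ctns*, the gene of the lysosomal cystine exporter, and of their controls. The set was a list of 7 genes picked by symbol. It holds *SLC5A2* (SGLT2) and *SLC5A1* (SGLT1), which bring glucose in from the filtrate, *SLC2A2* (GLUT2) and *SLC2A1* (GLUT1), which let it out towards the blood, *SLC5A8* (SMCT1) and *SLC5A12* (SMCT2), which bring in lactate and other monocarboxylates, and *SLC5A10* (SGLT5), a sodium-linked carrier of fructose and mannose. All 7 were among the 17376 symbols of the mouse table. The rat table of 14931 symbols held 6 of them, and *SLC5A12* was not analysed in the rat.

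Each library came from 1 animal. The mice, of C57BL/6 background, were 4 *Ctns* KO and 4 WT littermates, and the rats, of Sprague-Dawley background, were 8 *Ctns* KO and 8 WT littermates. No animal of these groups carries a label for a drug or another allele, and the ages of the sequenced animals were not given in the sources used here. For its mouse work the study names females of several ages and says nothing of which age was sequenced. It names rats of both sexes in its drug experiment, reports no analysis of rats by sex and does not state the sex of the sequenced rats. The study's methods name kidney cortex, whereas the labels name both cortex and microdissected proximal tubules. The rats carry the numbers 17 to 24 and 25 to 32, with 4 KO and 4 WT rats in each range. The labels do not say what separates these ranges, so they are used here only as numbers.

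In the proximal tubule, glucose enters the cell at the brush border together with sodium and leaves by facilitated diffusion at the basolateral side. *SLC5A2* is the high-capacity carrier of the early segments and *SLC5A1* the high-affinity carrier further along the tubule. Loss of glucose, lactate, amino acids and phosphate in the urine, known as the renal Fanconi syndrome, is the hallmark of kidney disease in cystinosis.

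Between 19309449 and 44449859 reads per mouse and between 24684097 and 40629873 per rat fell on listed genes. *CTNS* was lower in the KO mice, with scaled values of 0.319 to 0.342 against 0.824 to 1.03 in WT mice (log2 difference -1.46 without a pseudocount, adjusted p = 1.24e-06, limma, and -0.52 after 1 is added to each value). In the rats the *CTNS* levels of the genotypes overlapped, with 16.8 to 22.2 CPM in KO and 19.2 to 27.8 CPM in WT rats. Over all rats the log2 fold change of *CTNS* was -0.22, not called by edgeR (adjusted p = 0.0511) and called by DESeq2 (adjusted p = 0.0416) and by edgeR once the ranges entered as a covariate (adjusted p = 0.0251). *CTNS* was called lower in rats 25 to 32 (-0.32, adjusted p = 0.0391, edgeR) but not on library totals (-0.16, adjusted p = 0.314), and it was not called in rats 17 to 24 (-0.11, adjusted p = 0.514). Which part of the gene the rat line lacks was not given in the sources used here. KO mouse 3 stood apart by 49 reads of *XIST*, against 17581 to 42003 in the other 7 mice, and limma called no transporter without it. Of all mice it had the lowest scaled value of *SLC5A1* (2.33), *SLC5A10* (4.02) and *SLC2A1* (1.12). For the remaining transporters it was neither lowest nor highest. The study names females for its mouse work, and why mouse 3 stood apart was not tested. Genes of other cell types were present as well, for example the thick ascending limb gene *UMOD* at 1848 to 3503 CPM in every rat beside 3087 to 6845 CPM of the proximal tubule gene *SLC34A1*. A bulk library cannot tell apart fewer cells of a type and less RNA per cell.

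Rat values below are CPM, the reads of a gene per library total after that total was scaled by TMM to make libraries comparable. Mouse values are scaled values, in which the 75th percentile of the library is 1. A gene was called changed at an adjusted p under 0.05, with the Benjamini-Hochberg adjustment over all genes tested.

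The rat promoters of the transporters on which the results turn are shown first, as the 250 bases before the start of the gene (RefSeq, GRCr8, sense strand of each gene). Capitals mark each CG dinucleotide. *SLC5A2* is shown as the carrier whose level stayed most alike between genotypes, *SLC2A2* as the carrier that rose and *SLC5A8* as the carrier that fell most.
SLC5A2, chr1:192277371-192277620, plus strand: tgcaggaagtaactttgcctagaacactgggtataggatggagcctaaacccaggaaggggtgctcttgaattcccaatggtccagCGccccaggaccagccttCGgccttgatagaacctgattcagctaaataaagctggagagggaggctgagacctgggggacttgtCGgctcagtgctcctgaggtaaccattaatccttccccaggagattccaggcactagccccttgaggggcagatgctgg
SLC2A2, chr2:113540120-113540369, plus strand: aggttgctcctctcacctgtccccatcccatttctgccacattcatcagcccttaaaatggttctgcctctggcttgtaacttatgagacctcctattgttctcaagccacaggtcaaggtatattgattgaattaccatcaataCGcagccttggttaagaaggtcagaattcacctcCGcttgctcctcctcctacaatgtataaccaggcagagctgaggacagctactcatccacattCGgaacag
SLC5A8, chr7:25160030-25160279, plus strand: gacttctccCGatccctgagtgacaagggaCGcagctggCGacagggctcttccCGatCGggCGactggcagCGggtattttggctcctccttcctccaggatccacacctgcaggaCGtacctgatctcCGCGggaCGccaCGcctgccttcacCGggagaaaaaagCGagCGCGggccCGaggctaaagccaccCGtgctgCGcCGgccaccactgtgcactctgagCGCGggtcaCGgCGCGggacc

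The promoters differed in base composition. *SLC5A8* held 25 CG dinucleotides, *SLC2A1* 17 and *SLC5A1* 13, whereas *SLC5A2*, *SLC2A2* and *SLC5A10* held 3 each and *SLC5A12* held 0. The median over all 33469 rat promoter windows of this length was 5. A core motif of HNF4 (CAAAG, both strands) occurred 2 times for *SLC5A10* and 1 time each for *SLC5A1* and *SLC5A2*, and 48.2% of all windows hold it. These counts describe letters only.

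In WT mice the 7 transporters fell into a group of abundant and a group of scarcer transcripts when scaled values were divided by the length of the merged exons (GENCODE vM21, GRCm38). *SLC5A2* led with 4.80 ± 1.29 per kb (SD, n = 4), followed by *SLC5A10* with 4.23 ± 2.34 and *SLC5A12* with 3.31 ± 1.27. These 3 overlapped from mouse to mouse. The other 4 ranged from 0.765 ± 0.153 for *SLC5A1* through 0.718 ± 0.0937 for *SLC2A2* and 0.535 ± 0.116 for *SLC5A8* to 0.414 ± 0.0335 for *SLC2A1*. The lowest WT value of *SLC5A12*, 1.83, lay above the highest of *SLC5A1*, 0.923, so both groups were separate, while neighbours inside each group overlapped.

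The comparison of KO with WT mice asks whether these carriers moved with loss of *Ctns*. None of the 7 transporters was called in the mouse (limma, 0 of 7, with 1 at an unadjusted p under 0.05). Over all 17376 symbols 3.5% were called higher and 0.817% lower. edgeR on the reads recovered from the scaled values called none of the 7 either, and DESeq2 called 1, *SLC2A1*. Mouse differences below are on the log2(value + 1) scale, which understates the change of low values.

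The carriers of glucose entry were not called between the mouse genotypes. *SLC5A2* (chr7:128265657-128272430) measured 13.3, 14.2, 11.3 and 12.4 in KO mice and 11.9, 19.5, 11.6 and 12.7 in WT mice. Only WT mouse 2 stood above the others, and the difference was -0.09 (95% interval -0.47 to 0.30, adjusted p = 0.896, limma). *SLC5A1* (chr5:33104219-33162870) gave 2.33, 2.73, 3.34 and 3.09 in KO and 3.79, 2.41, 3.52 and 2.85 in WT mice, a difference of -0.09 (-0.39 to 0.21, adjusted p = 0.828, limma). The genotypes overlapped for both entry carriers. The study itself reports decreased *Slc5a2* expression in *Ctns* KO mouse kidneys, from a separate measurement of mRNA levels by RT-qPCR. It also reports an inverse correlation of this expression with solute loss. The measurements differ in method, and whether the ages match is not known.

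The exit carriers were more even from mouse to mouse. *SLC2A1* (chr4:119108711-119137983) was 1.12, 1.26, 1.242 and 1.32 in KO and 1.42, 1.32, 1.60 and 1.48 in WT mice. The highest KO mouse and the lowest WT mouse met at 1.32, and the difference of -0.13 (-0.23 to -0.04) had an unadjusted p of 0.0145 and an adjusted p of 0.136 with limma. DESeq2 on the recovered reads gave *SLC2A1* a log2 fold change of -0.26 with an adjusted p of 0.0348. *SLC2A2* (chr3:28697903-28731359) was 4.34, 4.70, 5.10 and 4.53 in KO and 3.41, 4.69, 4.32 and 4.11 in WT mice, a difference of 0.15 (-0.05 to 0.34, adjusted p = 0.418, limma). Within single libraries the reads of *SLC2A2* were 3.43 to 4.11 times those of *SLC2A1* in KO and 2.41 to 3.56 times in WT mice, given as a description.

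The monocarboxylate carriers and *SLC5A10* spread widely among WT mice. *SLC5A12* (chr2:110597298-110647779) measured 7.44, 19.2, 11.3 and 15.8 in WT mice 1, 2, 4 and 7 but 11.2, 11.2, 10.5 and 10.8 in the KO mice. Its coefficient of variation was 38.3% in WT and 3.20% in KO mice, and the KO values lay inside the WT range (difference -0.20, -0.80 to 0.40, adjusted p = 0.790, limma). *SLC5A8* (chr10:88885992-88929515) was 3.12, 1.94, 3.32 and 3.03 in the same WT mice and 2.13 to 2.80 in KO mice (-0.15, -0.45 to 0.16, adjusted p = 0.670, limma). *SLC5A10* (chr11:61672781-61720826) was 15.9, 4.66, 13.5 and 5.97 in WT and 4.02 to 8.99 in KO mice (-0.43, -1.38 to 0.52, adjusted p = 0.687, limma).

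WT mice 1 and 2 lay at opposite ends for these carriers. WT mouse 1 was highest of the 8 for *SLC5A10* and *SLC5A1* and lowest for *SLC5A12*, whereas WT mouse 2 was highest for *SLC5A12* and *SLC5A2* and lowest for *SLC5A8*. The reads of *SLC5A12* were 2.39 times those of *SLC5A8* in WT mouse 1 and 9.93 times in WT mouse 2, with 3.87 to 5.26 times in the KO mice. Deviations of the log2 value from the genotype mean over the 8 mice correlated at r = 0.95 between *SLC5A1* and *SLC5A10* and at r = -0.94 between *SLC5A2* and *SLC5A8*. Values within a mouse share its library and its piece of tissue, and these correlations are a description.

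**Figure D1:**
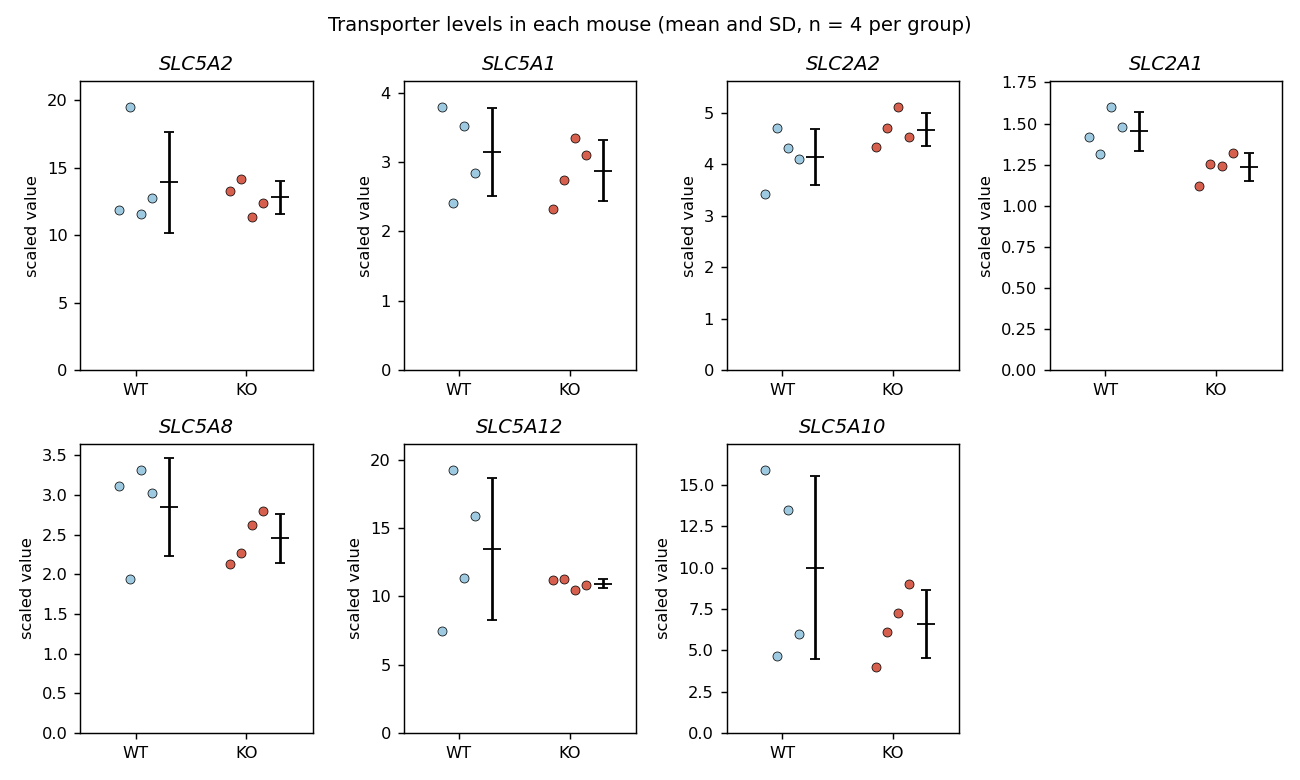
Scaled value of the 7 transporters in each mouse (vertical axis, linear from 0), with WT in blue and KO in red; points are animals in order of their number, and bars show the mean ± SD of 4. The wide WT spread of *SLC5A12* (7.44 to 19.2) and *SLC5A10* (4.66 to 15.9) contains or overlaps the KO values.

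Over all 16 rats none of the 6 transporters was called between KO and WT (edgeR, 0 of 6, with 2 at an unadjusted p under 0.05), where 15.2% of 11584 genes were called higher and 12.3% lower. DESeq2 called 0 and limma-voom 1, *SLC5A8*. The changes were -0.82 for *SLC5A8* (95% interval -1.48 to -0.16, adjusted p = 0.0613, edgeR), 0.36 for *SLC2A2* (0.02 to 0.69, adjusted p = 0.105) and -0.54 for *SLC5A10* (-1.16 to 0.07, adjusted p = 0.181). The number ranges differed in the level of several carriers, and they were therefore also set apart.

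With the number range as a covariate, 3 of 6 transporters were called over the 16 rats, beside 19.3% of all genes higher and 19% lower. *SLC5A8* fell by 0.97 on the log2 scale (adjusted p = 0.000336, edgeR), *SLC5A10* fell by 0.50 (adjusted p = 0.00701) and *SLC2A2* rose by 0.33 (adjusted p = 0.0140). *SLC5A2* was at -0.07 with an interval of -0.18 to 0.04, which bounds a fall at 0.18 on the log2 scale, and *SLC2A1* was at 0.10 (-0.02 to 0.22). *SLC5A1* was at -0.27 with an adjusted p of 0.0685.

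*SLC5A2* was the most even of the carriers in the rat. Its level in rats 25 to 32 was 653, 618, 538 and 642 CPM in KO and 560, 609, 654 and 635 CPM in WT. The genotypes overlapped fully, and the log2 fold change was -0.0038 (95% interval -0.18 to 0.17, adjusted p = 0.972, edgeR), or 0.16 on library totals without TMM (adjusted p = 0.0737). KO rats 17 to 24 gave 642, 597, 636 and 604 CPM and WT animals 645, 676, 729 and 658 CPM. There every KO rat lay below every WT rat, but the change of -0.12 (-0.24 to 0.0029) was not called (adjusted p = 0.249, edgeR).

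*SLC5A1*, the high-affinity entry carrier, was scarce, with 257 to 794 reads per rat. In rats 25 to 32 KO values were 16, 13.7, 13 and 10.4 CPM and WT values 21.3, 18.8, 18 and 14.5 CPM. The lowest WT rat lay within the KO range, and *SLC5A1* fell by 0.45 on the log2 scale (adjusted p = 0.0328, edgeR). This call held in 2 of the 8 fits that left out 1 rat, with a highest adjusted p of 0.0959 without WT rat 25. It was also lost without WT rats 27 or 29, without KO rats 28, 30 or 32, and on library totals without TMM (-0.29, adjusted p = 0.169). Rats 17 to 24 had *SLC5A1* at 20.03 to 24.5 CPM in KO and 19.7 to 30.6 CPM in WT rats (-0.08, adjusted p = 0.803, edgeR). The reads of *SLC5A2* per read of *SLC5A1* were 40.9 to 61.7 in KO and 26.3 to 43.9 in WT rats 25 to 32, and 24.6 to 32.1 and 21.1 to 35.8 in rats 17 to 24.

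*SLC2A2*, the basolateral glucose exit, rose in KO rats 25 to 32. Its level was 204, 204, 190 and 164 CPM in KO and 119, 156, 143 and 127 CPM in WT rats. Every KO rat lay above every WT rat, and *SLC2A2* rose by 0.49 on the log2 scale (95% interval 0.27 to 0.71, adjusted p = 0.00295, edgeR). The call held in 8 of 8 fits that left out 1 rat. In rats 17 to 24 the level was 93.0, 133, 119 and 131 CPM in KO and 82.9, 113, 99.9 and 126 CPM in WT, which overlapped (0.18, -0.16 to 0.53, adjusted p = 0.579, edgeR). The difference between the ranges was 0.31 (-0.08 to 0.70, adjusted p = 0.259), so a range effect on *SLC2A2* was not shown.

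*SLC2A1*, the exit carrier of later segments and of most other cells, was not called in either range. In rats 25 to 32 KO values were 42.5, 51.5, 48.8 and 51.5 CPM and WT values 46.3, 40.0, 44.4 and 41.8 CPM. Only KO rat 26 lay within the WT range, and the change of 0.17 (95% interval -0.0015 to 0.34) was not called with TMM (adjusted p = 0.0988, edgeR). It was called without KO rat 26 (adjusted p = 0.0314) and on library totals, where it was 0.33 (adjusted p = 0.00739). The genotypes overlapped in rats 17 to 24, with 51.6 to 56.9 CPM in KO and 45.5 to 56.0 CPM in WT (0.04, adjusted p = 0.813, edgeR). The reads of *SLC2A2* per read of *SLC2A1* were 3.19 to 4.81 in KO and 2.57 to 3.89 in WT rats 25 to 32, and 1.80 to 2.57 and 1.48 to 2.77 in rats 17 to 24.

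*SLC5A8*, the sodium-linked lactate and pyruvate carrier, showed the largest change of the 6 carriers in rats 25 to 32. KO rats measured 14.2, 10.01, 13.1 and 9.92 CPM and WT rats 26.7, 36.7, 29.7 and 35.0 CPM. The groups did not overlap, and the KO level was 0.369 times the WT level (log2 fold change -1.44, 95% interval -1.76 to -1.11, adjusted p = 4.08e-05, edgeR). The call held in 8 of 8 fits that left out 1 rat. In rats 17 to 24 KO rats gave 40.9, 27.5, 45.6 and 28.3 CPM and WT rats 43.9, 41.7, 53.7 and 66.9 CPM. KO rat 22 lay above 2 of the WT rats there, and the change of -0.53 (-1.05 to -0.0086) was not called (adjusted p = 0.229, edgeR).

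*SLC5A8* was also the 1 transporter of 6 called in the test of whether the genotype effect differed between the ranges. That share was near the 14.7% of 11839 genes called either way in that test. *SLC5A1* was at -0.36 with a wide interval (-0.80 to 0.07) and was not called (adjusted p = 0.235, edgeR). For *SLC5A8* the test gave the following. The effect was more negative in rats 25 to 32 (interaction -0.91 on the log2 scale, 95% interval -1.47 to -0.34, adjusted p = 0.0328, edgeR). The call held in 8 of 16 fits that left out 1 rat, with adjusted p from 0.0133 to 0.0750. It was lost without WT rats 17, 19, 27 or 31 and without KO rats 18, 22, 28 or 32.

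*SLC5A10*, the fructose and mannose carrier, had negative log2 fold changes in both ranges, and neither passed the test. Rats 17 to 24 gave 104, 90.9, 101 and 90.1 CPM in KO and 164, 102, 186 and 143 CPM in WT, with KO rat 18 just above WT rat 19. The change was -0.62 (95% interval -1.01 to -0.22, adjusted p = 0.0748, edgeR), and it was called without WT rat 19 (adjusted p = 0.000816), by DESeq2 (adjusted p = 0.000484) and on library totals (adjusted p = 0.0404). Rats 25 to 32 gave 33.2, 64.2, 51.8 and 47.3 CPM in KO and 58.3, 55.0, 60.5 and 79.2 CPM in WT, which overlapped (-0.36, -0.75 to 0.03, adjusted p = 0.120, edgeR). Without KO rat 28 the change was -0.51 and called (adjusted p = 0.0384).

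In counts, 0 of 6 transporters were called in rats 17 to 24 (edgeR, with 2 at an unadjusted p under 0.05, DESeq2 1 and limma-voom 0), where 5.07% of 11610 genes were called higher and 2.19% lower. In rats 25 to 32, 1 of 6 was called higher and 2 of 6 lower, where 21.8% of 11633 genes were called higher and 22.1% lower. The share of transporters called was thus near that of all genes, and their median log2 fold change was -0.18, against -0.01 over all genes. The 2 ranges have no animal in common.

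**Figure D2:**
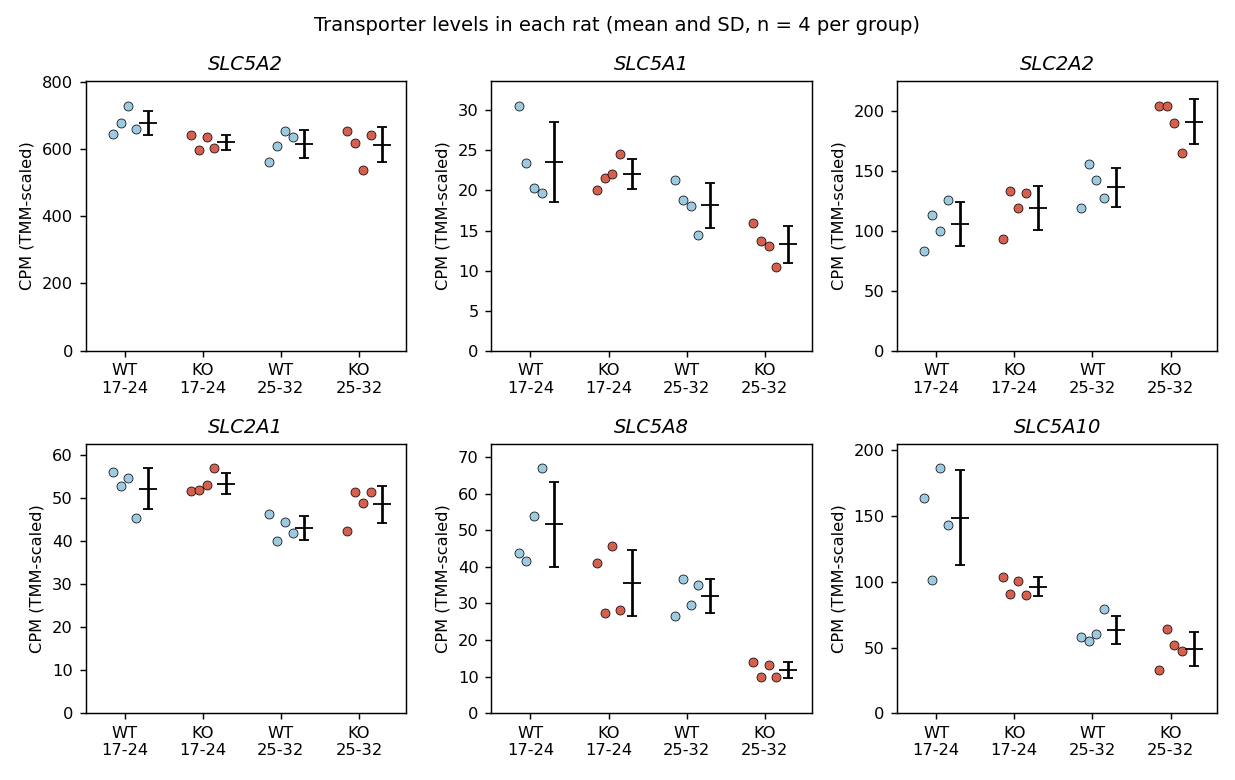
CPM on TMM-scaled totals of the 6 transporters in each rat (vertical axis, linear from 0), by genotype (WT blue, KO red) and number range; points are animals in order of their number, and bars show the mean ± SD of 4. *SLC5A8* in KO rats 25 to 32 sits at 9.92 to 14.2 CPM, below all other rats, while *SLC5A2* stays between 538 and 729 CPM in all 16.

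The carriers also differed between the WT rats of the ranges, where genotype plays no part. *SLC5A10* was lower in WT rats 25 to 32 than in WT rats 17 to 24 by a log2 fold change of -1.26 (adjusted p = 0.00117, edgeR), at 55.0 to 79.2 against 102 to 186 CPM. *SLC5A8* was lower as well (-0.71, adjusted p = 0.00912), at 26.7 to 36.7 against 41.7 to 66.9 CPM, and *SLC2A1* too (-0.30, adjusted p = 0.0232). The call of *SLC2A1* held in 3 of 8 fits that left out 1 rat (lost without WT rats 17, 19, 21, 29 or 31, highest adjusted p = 0.0659), those of *SLC5A8* and *SLC5A10* in 8 of 8. So by edgeR 0 of 6 were higher and 3 of 6 lower, beside 8.79% of 11504 genes higher and 9.54% lower.

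The remaining 3 carriers were not called between the WT ranges by edgeR. *SLC2A2* was at 0.35 (adjusted p = 0.0797, edgeR, and 0.0289 without WT rat 23), and DESeq2 called it higher (0.36, adjusted p = 0.0352). Next came *SLC5A1* at -0.39 (adjusted p = 0.103, edgeR) and *SLC5A2* at -0.16 (adjusted p = 0.128). On library totals the median of all genes shifted by -0.11 in this comparison and 5 of 6 carriers were called lower, *SLC5A2* and *SLC5A1* among them.

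**Figure D3:**
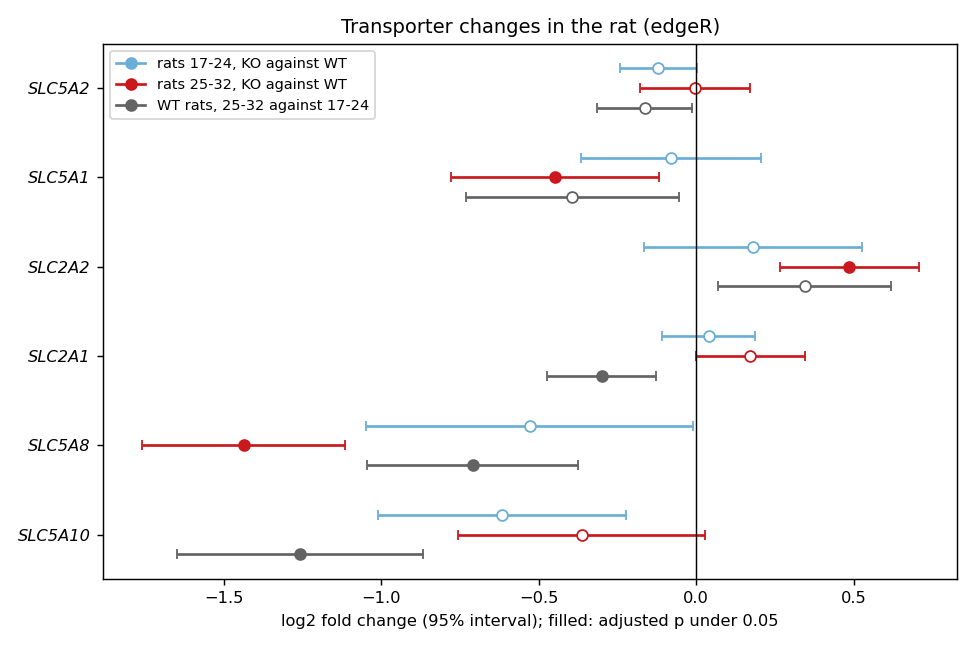
Log2 fold change (horizontal axis) of the 6 transporters with its 95% interval for KO against WT in each number range and for WT rats 25 to 32 against WT rats 17 to 24; filled points had an adjusted p under 0.05 (edgeR). *SLC5A8* at -1.44 and *SLC2A2* at 0.49 stand on opposite sides in rats 25 to 32, with *SLC5A2* at -0.0038 between them.

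The transporters were set beside the genes that mark the early proximal tubule, segments 1 and 2, to see whether they moved as those did. In rats 25 to 32 all 11 measured markers fell, from -0.37 to -1.21 (median -0.84), led by the bicarbonate exit carrier *SLC4A4* (-1.21, adjusted p = 0.0072, edgeR) and the neutral amino acid carrier *SLC6A19* (-1.15, adjusted p = 2.72e-05). Of the carriers that act in the same segments, *SLC5A2* was at -0.0038 and *SLC2A2* at 0.49. The same list had 3 of 11 genes lower and a median of -0.22 in rats 17 to 24.

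Each transporter was therefore also expressed as its log2 level minus the mean log2 level of these markers in the same library. The measure was chosen after the fall of the markers had been seen, and a carrier that stays level gains relative to a list that fell, so it is given as a description with no test. Relative to the markers *SLC5A2* was 0.81 higher in KO than in WT rats 25 to 32 and 0.11 higher in rats 17 to 24, with 8 of 8 KO rats above every WT rat of their range. *SLC2A2* was 1.30 and 0.42 higher in the same order, and *SLC2A1* 0.98 and 0.27 higher, with 7 of 8 KO rats above for each. Most of the gain of these 3 carriers thus lay in rats 25 to 32, where the markers fell most.

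*SLC5A8* was lower relative to the markers in both ranges, at -0.64 in rats 25 to 32 and -0.31 in rats 17 to 24, with 6 of 8 KO rats below every WT rat of their range. Relative to the markers *SLC5A10* was at 0.42 in rats 25 to 32 and -0.35 in rats 17 to 24, which leaves a mean of 0.03. Its own log2 fold change was negative in both ranges. *SLC5A1* was at 0.36 and 0.17. In the mouse *SLC2A2* was 0.39 higher relative to the 12 markers, with 4 of 4 KO mice above every WT mouse, and the other 6 carriers ranged from -0.27 for *SLC5A10* to 0.11 for *SLC5A2*. No carrier was set against segment 3, the last part of the proximal tubule. Of its 9 tested markers 5 were called lower and 2 higher in KO rats 25 to 32, with a median of -0.45 (edgeR).

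Genes of other cells moved in the same rats. In rats 25 to 32 the summed level of 7 tubular injury genes was 4093 to 6067 CPM in KO and 472 to 559 CPM in WT rats, that of 8 macrophage genes 328 to 483 against 158 to 200 CPM, and that of 7 fibroblast genes 475 to 534 against 258 to 298 CPM. Of these lists 7 of 7, 7 of 8 and 6 of 7 genes were called higher. Of the lymphocyte genes 6 of 6 were higher, of the distal nephron genes 3 of 7 were higher and 1 lower, and of the podocyte and endothelial genes 1 of 6 and 2 of 6 were lower. Their part in the values of the transporters was not tested.

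Among the known partners and regulators of the transporters 0 of 10 rose and 5 of 10 fell in rats 25 to 32, with a median of -0.42. *HNF4A*, a transcription factor of the proximal tubule, fell by 1.1 on the log2 scale (adjusted p = 0.000122, edgeR) and *HNF4G* by 1.14 (adjusted p = 0.000346). *PDZK1IP1* (MAP17), the accessory subunit of SGLT2, was at 0.07 (adjusted p = 0.547). Neither *SLC5A2* nor *PDZK1IP1* was called, while *HNF4A* fell.

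The rest of the SLC5 and SLC2 families was thinly covered. Of the other SLC5 genes 2 were tested in the rat, and both fell in rats 25 to 32, *SLC5A11*, a myo-inositol carrier, by 0.64 (adjusted p = 0.00042, edgeR) and *SLC5A9*, a mannose and fructose carrier, by 0.25 (adjusted p = 0.023). Of 8 other SLC2 genes 1 rose and 2 fell. *SLC2A6* rose by 1.54 (adjusted p = 0.00778), *SLC2A9*, a urate carrier, fell by 0.44 (adjusted p = 0.00163) and *SLC2A12* fell by 0.45 (adjusted p = 0.0323). *SLC2A6* was close to the floor, at 0.529 to 1.23 CPM in KO and 0.151 to 0.371 CPM in WT rats 25 to 32. In rats 17 to 24 its mean was 0.373 CPM in KO and 0.521 CPM in WT rats, the opposite direction. The fructose carrier *SLC2A5* was at -0.11 (adjusted p = 0.581).

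The SLC16 family, which holds the proton-linked monocarboxylate carriers, had 8 of 13 genes lower and 1 of 13 higher in KO rats 25 to 32, with a median of -0.51. *SLC16A14* fell by 1.37 (adjusted p = 0.000285, edgeR), whereas *SLC16A5* rose by 0.52 (adjusted p = 0.0329). The lactate carriers *SLC16A1* (MCT1), at 0.15 (adjusted p = 0.463), and *SLC16A3* (MCT4), at 0.13 (adjusted p = 0.502), were not called. Their chaperone *BSG* was not called either, at 0.07 (adjusted p = 0.532). Beside these named lactate carriers *SLC5A8* was the called one, and *SLC5A12* was not analysed in the rat.

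Enzymes that use lactate and pyruvate had 6 of 9 genes lower and 1 of 9 higher in the same comparison, with a median of -0.54. *PCK1*, a key enzyme of gluconeogenesis, fell by 1.19 (adjusted p = 0.000143, edgeR) and *PC*, pyruvate carboxylase, by 0.95 (adjusted p = 3.1e-05), while *LDHA*, which makes lactate from pyruvate, rose by 0.72 (adjusted p = 0.000124). The sodium pump, whose gradient drives every SLC5 carrier, had 1 of 6 subunits called, *ATP1B3* at 0.26 (adjusted p = 0.0156).

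**Figure D4:**
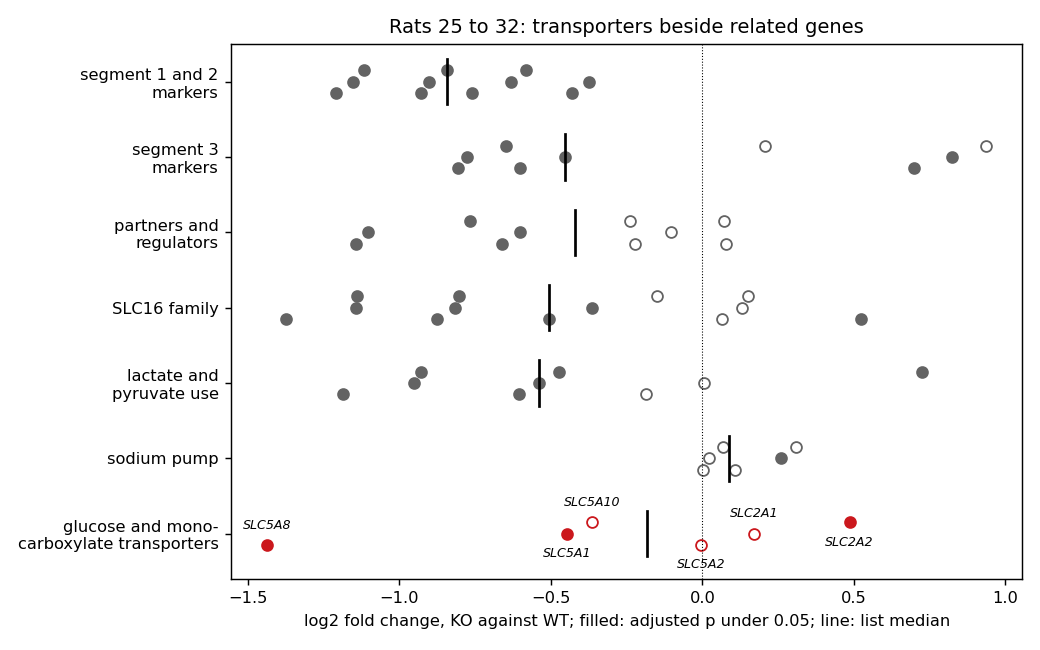
Log2 fold change of KO against WT in rats 25 to 32 (horizontal axis) for the 6 transporters, in red, and for 6 lists of related genes, in grey; each point is a gene, filled where the adjusted p was under 0.05 (edgeR), and the black line is the list median. The transporters spread from *SLC5A8* at -1.44 to *SLC2A2* at 0.49, whereas all 11 markers of segments 1 and 2 lie between -1.21 and -0.37.

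In the mouse few genes of the related lists were called. By limma, of the partners and regulators 0 of 11 were called (4 at an unadjusted p under 0.05, and 2 lower by edgeR and by DESeq2), and of the SLC16 family 0 of 16 (2 at an unadjusted p under 0.05, 0 by edgeR and 2 lower by DESeq2). Of the enzymes that use lactate and pyruvate 1 of 9, *FBP1*, a step of gluconeogenesis, was lower (-0.38, adjusted p = 0.0482, limma), with 2 lower by edgeR and 3 by DESeq2. Of the other SLC5 and SLC2 genes limma called 0 of 7 and 0 of 9, whereas edgeR and DESeq2 each called 1 lower in both families. None of the 12 markers of segments 1 and 2 was called (2 at an unadjusted p under 0.05, 1 lower by edgeR and 3 by DESeq2), while 5 of 8 injury genes and 5 of 8 macrophage genes were higher by limma.

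The change in the rat was set against that in the mouse for the 6 shared transporters (limma on values scaled alike in both species). None was called (0 of 6, with 1 at an unadjusted p under 0.05 and 0 called by edgeR or limma-voom on reads), beside 3.17% of 11216 symbols called either way. These fits pooled the rat number ranges without a covariate, so differences between the ranges count as spread in them. *SLC2A1* came nearest, with a rat change 0.20 above the mouse change (95% interval 0.07 to 0.33, adjusted p = 0.0858, limma). For *SLC5A8* the difference was -0.18 (-0.57 to 0.21) and for *SLC2A2* 0.13 (-0.25 to 0.52), and both intervals span 0. These values are on the log2(value + 1) scale, and on the other scales (pseudocount 0.1, edgeR or limma-voom on reads) the difference was -0.55 to -0.75 for *SLC5A8*, 0.18 to 0.23 for *SLC2A2* and 0.34 to 0.38 for *SLC2A1*, with none of the 3 called.

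The genes whose level ran most like each carrier were taken from 8064 symbols with at least 10 CPM, by the correlation of deviations from the mean of genotype and range over 16 rats. For *SLC5A2* these were *PDZK1* (r = 0.88), a scaffold of the brush border, *FMO1* (r = 0.88) and *ALDH2* (r = 0.86). *SLC5A8* ran with *EXOC6* (r = 0.96), *SLC5A10* with *RNPEP* (r = 0.85), *SLC5A1* with *CEP68* (r = 0.88), *SLC2A1* with *SORBS3* (r = 0.92) and *SLC2A2* with *NUP58* (r = 0.93). Over the 8 mice *RNPEP* and *SLC5A10* correlated at r = 0.86 and *NUP58* and *SLC2A2* at r = 0.66, whereas *EXOC6* and *SLC5A8* were at r = -0.85. Points of 1 rat share a library, and these values are a description.

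No other transporter was among the 3 nearest genes of any carrier. The closest pair of carriers in absolute value over the rats was *SLC5A8* with *SLC2A1* (r = -0.72), which in the mice was at r = 0.82, and *SLC5A1* with *SLC5A10* was at r = -0.34 in the rats against 0.95 in the mice.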

How the data were processed

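RNA of 24 animals had been sequenced from TruSeq Stranded mRNA libraries, and the submitters' processing notes name bcl2fastq 2.20, STAR 2.7.3, DESeq2 1.24.0 and R 3.6.1 with the builds mm10 and rn5. The annotation and the counting are not given in the sources used here. For the mouse the authors deposited a scaled signal per symbol, which from the values is the reads plus 0.5 over the 75th percentile of the library plus 0.5. Whole reads were recovered, within 0.01, for 99.0% of values. For the rat the deposited values are estimated counts, here reads plus 1/6 (97.7% whole), and they were rounded. All transporter values were whole. Symbols are of human style.

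Here, mouse values were tested with limma 3.58.1 (trend, robust) on log2(value + 1) without a filter, because the table is not one of counts, and rat reads with edgeR 4.0.16 (quasi-likelihood, robust, TMM, filterByExpr) in R 4.3.3, with no covariate unless stated. The contrast of species was to be tested on counts and was run with limma on scaled values. P-values were adjusted over all genes with a threshold of 0.05. The fits within a species were run on simulated data with known changes. There limma on log2(value + 1), the main mouse test, was not required to recover most of these changes. The contrast of species was not simulated. P-values measure the spread between animals, and depth covers counting error only. The transporters, lists and tests were chosen with earlier results of these data known. Alternatives were other pseudocounts and filters, DESeq2 1.42.0, its size factors, limma-voom, the number range as a covariate and leaving out each animal, and library totals without TMM were added after the data were seen. Every transporter was named in each comparison, with the called genes of largest change (up to 2 per direction) and a few fixed genes per list. Mouse coordinates are from GENCODE vM21, and promoters from RefSeq matched for 7 of 7 symbols. Some genes that met this rule are not reported here by name and stay in all counts.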

Additional observations from a re-analysis of the deposited data

Results flagged for a closer look

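*SLC5A2* in WT mouse 2 stood far above the other WT mice, at a scaled value of 19.5 against 11.6 to 12.7. Among 50 groups of 4 or 8 animals examined this was the 1 with a sample far from the rest. Chance flags about 1 in 20 of such groups, so 1 among 50 is not more than chance gives. The same mouse also had the highest mean log2 level of the 12 markers of segments 1 and 2. It was at 4.89, against 4.37 to 4.56 in the other mice. The part of this in its *SLC5A2* value was not tested. Without this mouse the difference between KO and WT mice was 0.07 in place of -0.09, and *SLC5A2* was not called either way (adjusted p = 0.691, limma).

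The effect of genotype on *SLC5A8* differed between the rat number ranges by -0.91 on the log2 scale, as tested by the interaction (adjusted p = 0.0328, edgeR). The call held in 8 of 16 fits that left out 1 rat, and 14.7% of all genes were called in this test. KO rats 25 to 32 lay below all 4 WT rats of their range in 4 of 4 cases. In rats 17 to 24 the change was not called. The labels give no meaning to the ranges.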

How the results depend on the processing

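The counts of called transporters in the mouse and in rats 25 to 32 stayed within 1.5 times under all alternatives except DESeq2 on recovered mouse reads, which called 1 in place of 0. Over all 16 rats 1 was called in place of 0 by limma-voom and 1 on library totals, and 3 once the range entered as a covariate. In rats 17 to 24 DESeq2 and library totals each called 1 in place of 0. On library totals the interaction gave 2 in place of 1, *SLC5A2* beside *SLC5A8*, and the WT ranges 5 in place of 3 (4 by DESeq2, *SLC2A2* added). Library totals moved the median of all genes by 0.16 in rats 25 to 32, 0.14 in the interaction, 0.09 over all rats and -0.11 between WT ranges. The cause of the other differences was not tested.

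When 1 animal was left out, the count ran from 0 to 0 in the mouse, 0 to 2 over all rats (2 without KO rat 18, 1 without KO rat 22), 0 to 1 in rats 17 to 24 (1 without WT rat 19), 2 to 4 in rats 25 to 32, 0 to 1 for the interaction, 2 to 4 for the WT ranges and 0 to 1 between species (1 without WT rat 17). No single transporter that was called changed direction. Of those not called, *SLC5A2* ran from -0.16 to 0.075 in the mouse and from -0.046 to 0.056 in rats 25 to 32, and in rats 17 to 24 *SLC5A1* from -0.16 to 0.064 and *SLC2A1* from -0.025 to 0.071. Between species *SLC5A1* ran from -0.044 to 0.12, *SLC5A10* from -0.12 to 0.40 and *SLC5A2* from -0.10 to 0.13. *SLC5A2* turned to 0.019 over all rats and to 0.16 in rats 25 to 32 on library totals. The species difference of *SLC5A1*, 0.03, was -0.061 with a pseudocount of 0.1, -0.0596 with edgeR and -0.0801 with limma-voom.

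No paired analysis was possible because the animal numbers (1 to 8 for mice, 17 to 32 for rats) differ between all animals and pair none. *SLC5A8* had as few as 245 reads in a rat and *SLC5A1* 257, whereas *SLC5A2* had at least 15049, so counting error bears most on the first of these.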

Other observations

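Of 9 tested markers of segment 3, the last part of the proximal tubule, 6 were not called between the WT rats of the number ranges, and 3 were called, in opposite directions (median over the 9 of 0.14). *AGT*, angiotensinogen, was higher in WT rats 25 to 32 than in WT rats 17 to 24 by 3.70 on the log2 scale (adjusted p = 3.05e-05, edgeR), *SLC22A7*, an organic anion carrier, was lower (-4.09, adjusted p = 6.87e-05) and *SLC7A13*, a cystine and glutamate carrier whose rat values were not whole reads and are uncertain to that extent, was lower (-1.98, adjusted p = 0.00127). The insulin-responsive glucose carrier *SLC2A4* was lower in the same comparison (-1.51, adjusted p = 2.29e-05), while *SLC2A5* was 0.53 higher (adjusted p = 0.00564) and *SLC2A9* 0.46 higher (adjusted p = 0.00152). Their part in the levels of *SLC5A10*, *SLC5A8* and *SLC2A1* between the ranges was not tested.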
